A study of Homo sapiens with 8 samples.

Results

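The TNF ligand and receptor superfamily was followed across 8 expression arrays of brain-metastatic breast cancer cells in which MET, a receptor tyrosine kinase, was knocked down. Its members were taken by name: every gene whose symbol starts with TNFSF or TNFRSF, with TNF, LTA, LTB, LTBR, FAS, FASLG, CD40, CD70, CD27, NGFR, EDAR and RELT. This gave 42 of the 18239 genes named on the arrays, 15 ligands and 27 receptors, each read from 1 probe set, the one with the highest mean over the 8 arrays. CD40LG, TNFRSF6B, TNFSF13 and TNFSF12-TNFSF13 also meet the naming rule, but no probe set names them alone, and they are not analysed here. The arrays form 4 groups of 2: 231BrM cells with doxycycline, 231BrM control cells, SKBrM3 cells with doxycycline and SKBrM3 control cells. Both lines are brain-metastatic derivatives, 231BrM of MDA-MB-231 and SKBrM3 of SK-BR-3 by their names. All 4 groups carry the doxycycline-inducible shMet hairpin, and the doxycycline groups received the drug for 48 h at a dose labelled 100 ng, with no volume. No group had doxycycline without the hairpin, so what the drug does and what the hairpin does cannot be told apart.

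Ligands of this superfamily are mostly trimeric membrane proteins, some of them shed into a soluble form, and they cluster their receptors at the surface of the target cell. Receptors with a cytoplasmic death domain can recruit FADD and caspase-8 and start apoptosis, whereas the others bind TRAF adaptors and activate NF-kB and MAP kinases. Decoy receptors bind a ligand without passing on a death signal. In carcinoma cells the family is known chiefly for the TRAIL receptors, for the NF-kB response to TNF and for TWEAK signalling through its receptor Fn14.

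MET, the target of the hairpin, measured 5.85 and 5.35 on the 231BrM doxycycline arrays, against 9.45 and 9.26 on the 231BrM control arrays. It measured 5.76 and 5.71 on the doxycycline arrays labelled SKBrM3, against 9.25 and 9.20 on the control arrays labelled SKBrM3. All values are log2 values normalised by RMA, the authors' background correction, quantile normalisation and probe set summary. MET was therefore lower by 3.76 and 3.50 log2 units (limma adjusted p = 2.85e-05 and 1.32e-05). Over genes, 2 arrays of the same group had a correlation of 0.995 to 0.999, and 2 arrays from the 2 lines one of 0.975 to 0.979. The 231BrM doxycycline arrays lay furthest apart, with 68 genes over 2-fold different between them, against 0 or 1 gene in each other group. On replicate 1 of that group the actin control probes had a 3' minus 5' signal of 1.24 log2 units, a measure of RNA integrity, against 0.46 to 0.59 on the other 7 arrays. Several markers of the line labelled SKBrM3 go against a luminal, HER2-amplified origin, for which SK-BR-3 is known, and others do not. ERBB2 averaged 6.81 in 231BrM controls and 6.71 in controls labelled SKBrM3, a difference that did not pass the test. CDH1 and ESRP1 stayed below the filter level on all 8 arrays, KRT19 was 2.59 log2 units higher in 231BrM, and VIM lay between 12.72 and 12.91 everywhere. The luminal factor FOXA1 was higher in the line labelled SKBrM3 (5.02 in 231BrM controls and 6.39 in controls labelled SKBrM3). So was GRHL2 (4.23 and 4.51), close to the filter level of 4.41. SPDEF, of the same luminal list, was lower there (7.1 and 6.27). The line is therefore called "labelled SKBrM3" throughout. Of 12 luminal markers tested, 5 were higher and 2 lower in 231BrM controls, where 39.7% of all genes differed, and none passed the test for doxycycline in either line. Leukocytes make many of these ligands, and of 11 of their markers PTPRC, which defines them, measured 3.36 to 3.46. CD68, also known from lysosomes of other cells, measured 8.17 to 8.37, and CD3E and CD2 lay between 4.99 and 5.55. None of the 5 tested passed the test in any comparison.

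Of the 42 members, 27 had a promoter entry in RefSeq (GRCh38.p14), read here as the 250 bases before the gene's start. Both strands were searched for the GC box GGGCGG, the TATA box TATAAA, the AP-1 site TGANTCA and the NF-kB consensus. The 2 promoters shown stand for a receptor with a GC box, TNFRSF21, which rose with doxycycline on average over the lines, and for the ligand with the highest mean value, LTB, which holds an NF-kB consensus. TNFRSF21 is read at chr6:47309906-47310155 and LTB at chr6:31582426-31582675, both from the minus strand and 5′ to 3′. Capitals mark the GC box in TNFRSF21 and the NF-kB consensus in LTB, and neither promoter holds another of the 4 motifs.
TNFRSF21: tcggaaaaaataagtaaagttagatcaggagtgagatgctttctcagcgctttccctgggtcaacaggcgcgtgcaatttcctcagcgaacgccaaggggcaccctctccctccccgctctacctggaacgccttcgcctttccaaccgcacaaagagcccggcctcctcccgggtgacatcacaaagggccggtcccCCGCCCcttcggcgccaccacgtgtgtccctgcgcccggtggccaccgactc
LTB: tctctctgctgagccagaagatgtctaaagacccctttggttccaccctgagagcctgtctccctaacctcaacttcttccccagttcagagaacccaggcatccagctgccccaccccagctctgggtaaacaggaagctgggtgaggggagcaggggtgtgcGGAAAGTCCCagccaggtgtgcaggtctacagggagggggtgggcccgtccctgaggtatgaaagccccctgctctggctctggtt
The NF-kB consensus was found in 4 of the 27 promoters (LTB, TNFRSF14, TNFRSF9 and TNFSF14), against 5.05% of 27305 promoters. The GC box was found in 15 of 27, against 42.3% of all. The AP-1 site was found in 5, against 6.6%, and the TATA box in 4, against 11.1%. These matches describe letters in a window and say nothing of binding.

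Of the 42 members, 28 were tested and 14 were set aside. To be tested, a gene had to exceed a filter level of 4.41 on 2 or more arrays, which is the 40th percentile of the whole table. The split followed the roles of the members, with 6 of 15 ligands tested and 22 of 27 receptors tested. All 14 members set aside stayed below the filter level on all 8 arrays, with values from 3.29 to 4.38 and a median of 3.96. Among all genes 26.7% stayed below it on every array. Those ligands were CD70, FASLG, TNFSF4, TNFSF8, TNFSF10 (TRAIL), TNFSF11 (RANKL), TNFSF13B (BAFF), TNFSF14 (LIGHT) and TNFSF15, and those receptors TNFRSF4, TNFRSF9, TNFRSF17, TNFRSF18 and TNFRSF25, most of them known from lymphocytes. A value below the level has no measured background behind it and does not show that a transcript is missing. A further 6 members passed on some arrays only: EDAR, TNF, TNFRSF11A, TNFRSF13C, TNFRSF1B and TNFSF18. TNFRSF1B passed through 231BrM arrays alone and TNFRSF13C through arrays labelled SKBrM3 alone.

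**Figure D1:**
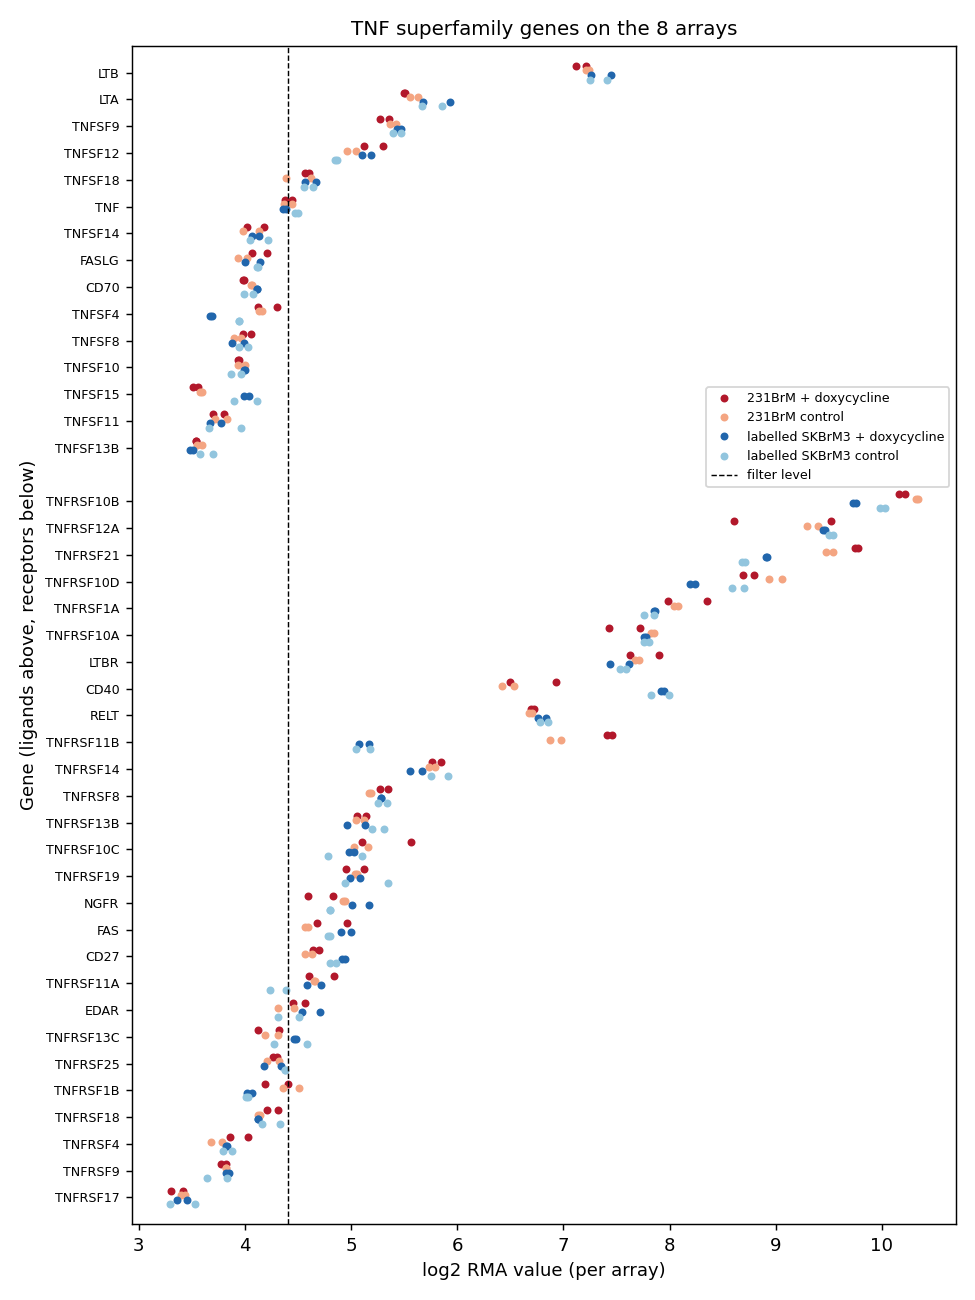
Log2 RMA value (x axis) of each of the 42 superfamily genes (y axis, ligands above receptors) on each array, with 1 point per array coloured by group and a dashed line at the filter level of 4.41. Most ligand points lie left of the line, and TNFRSF11B and CD40 show the widest gaps between the lines.

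The ligands with the highest mean values were LTB at 7.27, LTA at 5.67 and TNFSF9 at 5.40. The other probe set of each averaged less, at 4.64, 3.74 and 4.25. Those of LTA and TNFSF9 stayed below the filter level on every array, so the level of these ligands depends on the probe set. The receptors with the highest mean values were TNFRSF10B (TRAIL-R2) at 10.07, TNFRSF12A (Fn14) at 9.34, TNFRSF21 (DR6) at 9.22, TNFRSF10D (TRAIL-R4) at 8.65 and TNFRSF1A (TNFR1) at 7.97. Probe sets of different genes bind with different strength, so this order is one of signals and not of transcript numbers. The results below are differences of 1 probe set between groups of arrays.

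In 231BrM cells 0 of the 28 members passed an adjusted p of 0.05 for doxycycline (limma, Benjamini-Hochberg over 13002 genes), where 0.162% of all genes did. At an unadjusted p under 0.05 there were 6 members, 21.4%, against 9.89% of all genes. Of these, 4 were on the higher side (TNFRSF11B, TNFRSF21, FAS and TNFSF12), against 6.15% of all genes, and TNFRSF10A and TNFRSF10D were on the lower side, against 3.74%. The doxycycline and control arrays of 231BrM did not overlap in 13 of 28 members, against 37.9% of all genes. In cells labelled SKBrM3 1 of 28 members passed, TNFRSF10D, which fell, where 3.43% of all genes passed and 2.28% fell. At an unadjusted p under 0.05 there were 8, 28.6%, against 20.2% of all genes. NGFR, TNFRSF11A, TNFRSF21 and TNFSF12 were on the higher side, against 10.4% of all genes, and TNFRSF10B, TNFRSF10D, TNFRSF13B and TNFRSF14 on the lower, against 9.81%. The groups of that line did not overlap in 14 of 28 members, against 59.6% of all genes. For the average effect of both lines 2 of 28 passed, against 3.04% of all genes: TNFRSF10D fell (2.07% of all genes fell) and TNFRSF21 rose (0.969% rose). At an unadjusted p under 0.05 there were 7 for the average, against 18.9%. In 6 members the doxycycline arrays lay on the same side of the controls without overlap in both lines, 21.4%, against 15% of all genes. These counts turn on single arrays. Without 231BrM doxycycline replicate 2, the array with the high 3' signal stands alone for its group, and 1650 genes and 6 members were called in 231BrM, against 80 genes and 0 members without replicate 1. For cells labelled SKBrM3, 1631 genes and 5 members were called without either 231BrM doxycycline array, which enters that effect only through the shared spread, and 0 members without any of the other 6 arrays. For the average 10 members were called without 231BrM doxycycline replicate 2, 4 without replicate 1 and 0 without any of the other 6. The members' median effect was 0.03 log2 units in 231BrM, against 0.05 over all genes, and 0.02 in cells labelled SKBrM3, against 0.01. With 2 arrays a group, the 95% interval of a member's effect in 1 line had a median half-width of 0.217 log2 units. The labels do not say that replicates were separate cultures, so p-values cover only array-to-array spread, possibly technical. In such bulk RNA, fewer cells making a transcript and less of it per cell cannot be told apart.

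**Figure D2:**
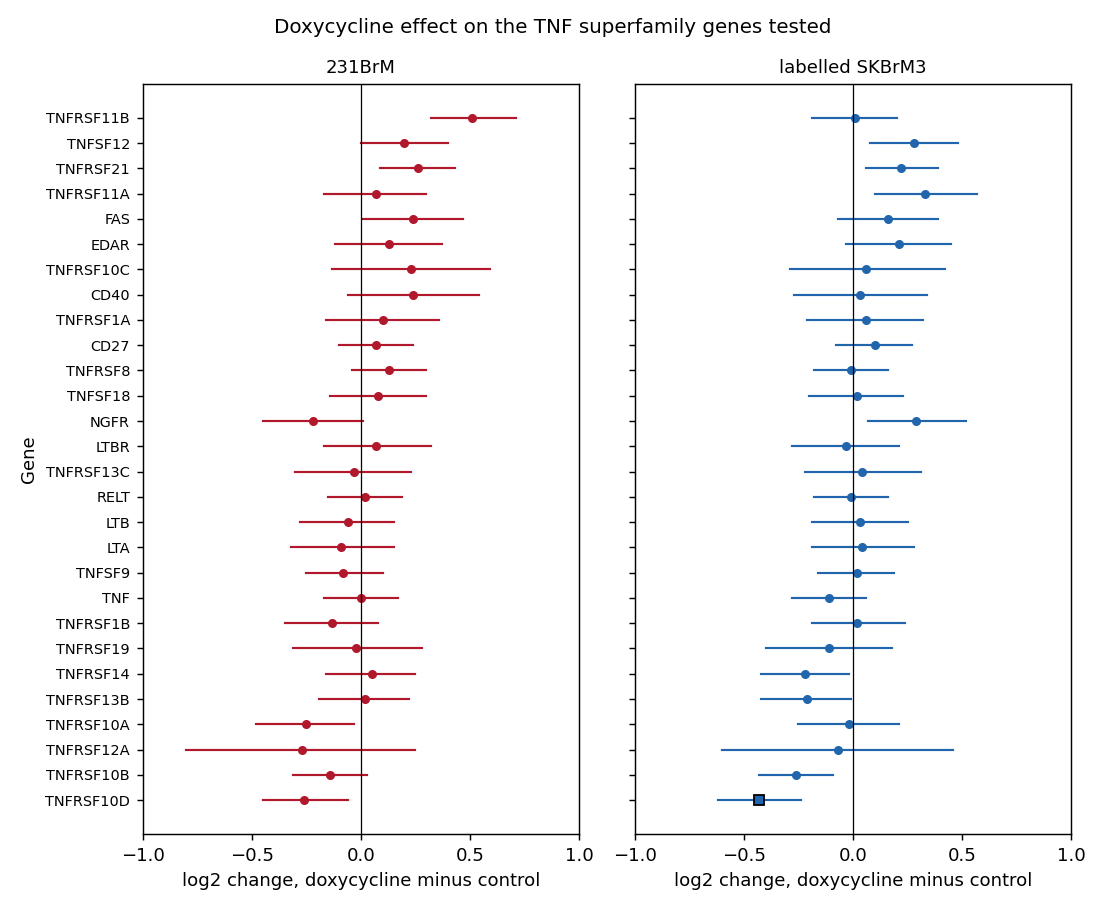
Doxycycline effect (x axis, log2 change, doxycycline minus control) of each of the 28 members tested (y axis) in 231BrM (left) and in cells labelled SKBrM3 (right). Points are the limma estimates from 2 arrays a group and bars their 95% intervals. TNFRSF11B at 0.51 in 231BrM and TNFRSF10D at -0.43 in cells labelled SKBrM3 lie furthest from 0 in their panels.

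The TRAIL receptors were the group in which a member fell. TNFRSF10A and TNFRSF10B carry the TRAIL death signal, while TNFRSF10C and TNFRSF10D lack a working death domain and act as decoys. TNFRSF10D measured 8.79 and 8.69 on the 231BrM doxycycline arrays, against 9.06 and 8.94 on the 231BrM control arrays. It measured 8.19 and 8.24 on the doxycycline arrays labelled SKBrM3, against 8.59 and 8.70 on the control arrays. In both lines the doxycycline arrays lay below both control arrays, as did 5.56% of all genes. The effect was -0.26 ± 0.0849 (SE, n = 2 per group) in 231BrM, with a limma adjusted p of 0.413. In cells labelled SKBrM3 TNFRSF10D fell 1.35-fold, by 0.43 on the log2 scale (95% interval -0.62 to -0.24, limma adjusted p = 0.0324). On average over the lines it fell by 0.34 (limma adjusted p = 0.0215). Its other probe set gave -0.45 in 231BrM and -0.64 in cells labelled SKBrM3. The call rests on few arrays. In cells labelled SKBrM3 the limma adjusted p was 0.0664 without either 231BrM control array, which enter through the shared spread. It was 0.22 and 0.153 without doxycycline replicate 1 or 2 of the line, and 0.116 and 0.249 without control replicate 1 or 2. The average lost its call without any of the same 6 arrays, with limma adjusted p from 0.0727 to 0.123.

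TNFRSF10B had the same direction with smaller differences. Its values were 10.22 and 10.16 on the 231BrM doxycycline arrays, against 10.34 and 10.32 on the 231BrM control arrays. They were 9.73 and 9.76 on the doxycycline arrays labelled SKBrM3, against 10.03 and 9.98 on the controls. The doxycycline arrays lay below both controls in each line, as in 5.56% of all genes. The effects were -0.14 and -0.26 (limma adjusted p = 0.547 and 0.0977). The second passed without either 231BrM doxycycline array, at a limma adjusted p of 0.0352 without replicate 1. The other 2 probe sets of TNFRSF10B gave -0.41 and -0.42 in 231BrM, and -0.35 and -0.52 in cells labelled SKBrM3, all in the same direction. TNFRSF10A measured 7.43 and 7.72 on 231BrM doxycycline arrays, against 7.82 and 7.85 on 231BrM controls. The distance came mostly from doxycycline replicate 1: the effect was -0.25 (limma adjusted p = 0.484) over all arrays, -0.11 without that replicate, and called at -0.40 (limma adjusted p = 0.0175) without replicate 2. With doxycycline it was 7.78 and 7.76 in cells labelled SKBrM3, against 7.76 and 7.81 in their controls, and the groups overlapped. TNFRSF10C did not pass in either line, with effects of 0.23 and 0.06, and its range over all arrays was 4.78 to 5.56. The 4 TRAIL receptors are close paralogs, and whether probes of one bind another's transcript was not tested. Their ligand TNFSF10 measured 3.87 to 4.0, below the filter level on all 8 arrays.

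TNFRSF21, known as death receptor 6, has a death domain and is studied mainly in neurons and lymphocytes. It measured 9.77 and 9.75 on the 231BrM doxycycline arrays, against 9.54 and 9.47 on the 231BrM control arrays. It measured 8.91 and 8.92 on the doxycycline arrays labelled SKBrM3, against 8.68 and 8.71 on the control arrays. The doxycycline arrays were above both controls in each line, as in 9.48% of all genes. The effects were 0.26 in 231BrM and 0.22 in cells labelled SKBrM3 (limma adjusted p = 0.339 and 0.139), and the average of 0.24 passed (95% interval 0.12 to 0.36, limma adjusted p = 0.0465). Over the 6 fits that each left out a 231BrM control array or an array labelled SKBrM3, that call was lost every time, with limma adjusted p from 0.143 to 0.201. It was kept without either 231BrM doxycycline array, and lost with array weights (limma adjusted p = 0.0553) and with probe sets not ending in _x_at (limma adjusted p = 0.0505). The other 2 probe sets gave 0.12 and -0.04 in 231BrM and 0.10 and 0.57 in cells labelled SKBrM3, so 1 of them had no rise in 231BrM. This receptor is the one whose promoter, with its GC box, is printed above.

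The remaining death domain receptors did not pass in any doxycycline comparison. FAS, the receptor that starts apoptosis on binding FASLG, measured 4.96 and 4.68 on 231BrM doxycycline arrays, against 4.57 and 4.59 on controls. In cells labelled SKBrM3 it measured 5.0 and 4.90 with doxycycline, against 4.80 and 4.78 in controls. The doxycycline arrays were higher in both lines, as in 9.48% of all genes, and close to the filter level. The effects were 0.24 and 0.16 (limma adjusted p = 0.492 and 0.418). The 231BrM effect was 0.10 without doxycycline replicate 1, and was called at 0.38 (limma adjusted p = 0.0247) without replicate 2. NGFR, the low-affinity neurotrophin receptor, went opposite ways. It measured 4.59 and 4.83 on 231BrM doxycycline arrays, against 4.94 and 4.92 on controls. It measured 5.17 and 5.01 on doxycycline arrays labelled SKBrM3, against 4.80 and 4.80 on controls. The effects were -0.22 and 0.29 (limma adjusted p = 0.506 and 0.15), and its second probe set, below the filter level throughout, gave 0.13 and 0. Without 231BrM doxycycline replicate 2 the 231BrM effect was called at -0.34 (limma adjusted p = 0.0451), and without replicate 1 it was -0.10. Without either of those arrays the effect of 0.29 was also called, at 0.0381 without replicate 1. TNFRSF1A, the main TNF receptor of most cells, measured 8.35 and 7.98 on 231BrM doxycycline arrays, against 8.08 and 8.04 on controls. Its groups overlapped, the effect was 0.10 (limma adjusted p = 0.768), and 2 other probe sets gave -0.33 and -0.36, so its direction in 231BrM differs between probe sets.

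TNFRSF11B encodes osteoprotegerin, a secreted decoy that binds RANKL and TRAIL. It measured 7.41 and 7.46 on the 231BrM doxycycline arrays, against 6.87 and 6.98 on the 231BrM control arrays. The 231BrM groups were well apart, on the single probe set of this gene. It measured 5.07 and 5.17 on the doxycycline arrays labelled SKBrM3, against 5.05 and 5.18 on the control arrays, and these groups overlapped. The effect of 0.51 ± 0.0858 in 231BrM (SE, n = 2 per group, 95% interval 0.32 to 0.71) did not pass the adjustment over all genes, with a limma adjusted p of 0.0978. Without doxycycline replicate 1 it was 0.54 (limma adjusted p = 0.055), and it was called without replicate 2 (limma adjusted p = 0.018). Without a 231BrM control array the limma adjusted p was 0.853 or 0.456, and without an array labelled SKBrM3 0.201 to 0.216. In cells labelled SKBrM3 the effect was 0.01 (95% interval -0.19 to 0.20). TNFRSF11A, which encodes RANK, the receptor of the same ligand, had low values. It measured 4.58 and 4.72 on doxycycline arrays labelled SKBrM3, against 4.39 and 4.24 on controls, which were below the filter level. The effect there was 0.33 (limma adjusted p = 0.124), called without either 231BrM doxycycline array (limma adjusted p = 0.0315 without replicate 1). In 231BrM it was 0.07, with values of 4.84 and 4.60 with doxycycline, against 4.65 and 4.66 in controls. TNFSF11, the shared ligand, stayed between 3.66 and 3.96.

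TNFSF12 encodes TWEAK, and TNFRSF12A its receptor Fn14. TNFSF12 measured 5.30 and 5.12 on 231BrM doxycycline arrays, against 5.05 and 4.96 on 231BrM controls. It measured 5.19 and 5.10 on doxycycline arrays labelled SKBrM3, against 4.85 and 4.87 on controls. The ligand was on the higher side in both lines with no overlap, as in 9.48% of all genes. It did not pass: the effects were 0.20 and 0.28 (limma adjusted p = 0.505 and 0.124) and the average 0.24 (limma adjusted p = 0.0812). The effect of 0.28 was called without either 231BrM doxycycline array (limma adjusted p = 0.0356 without replicate 1), and the average without replicate 2 alone (limma adjusted p = 0.00995). TNFRSF12A measured 8.61 and 9.52 on the 231BrM doxycycline arrays, against 9.29 and 9.40 on the 231BrM control arrays. The 2 doxycycline arrays lay on either side of the controls, 0.91 log2 units apart, and this is the only member more than 1.5-fold different between the replicates of a group. The lower value is on the array with the actin 3' minus 5' signal of 1.24. The effect was -0.27 (95% interval -0.80 to 0.25) with both arrays, 0.18 without replicate 1, and -0.73 without replicate 2, called at a limma adjusted p of 0.00277. On arrays labelled SKBrM3 it was 9.46 and 9.44 with doxycycline, against 9.50 and 9.54 in controls, an effect of -0.07 (95% interval -0.60 to 0.46).

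**Figure D3:**
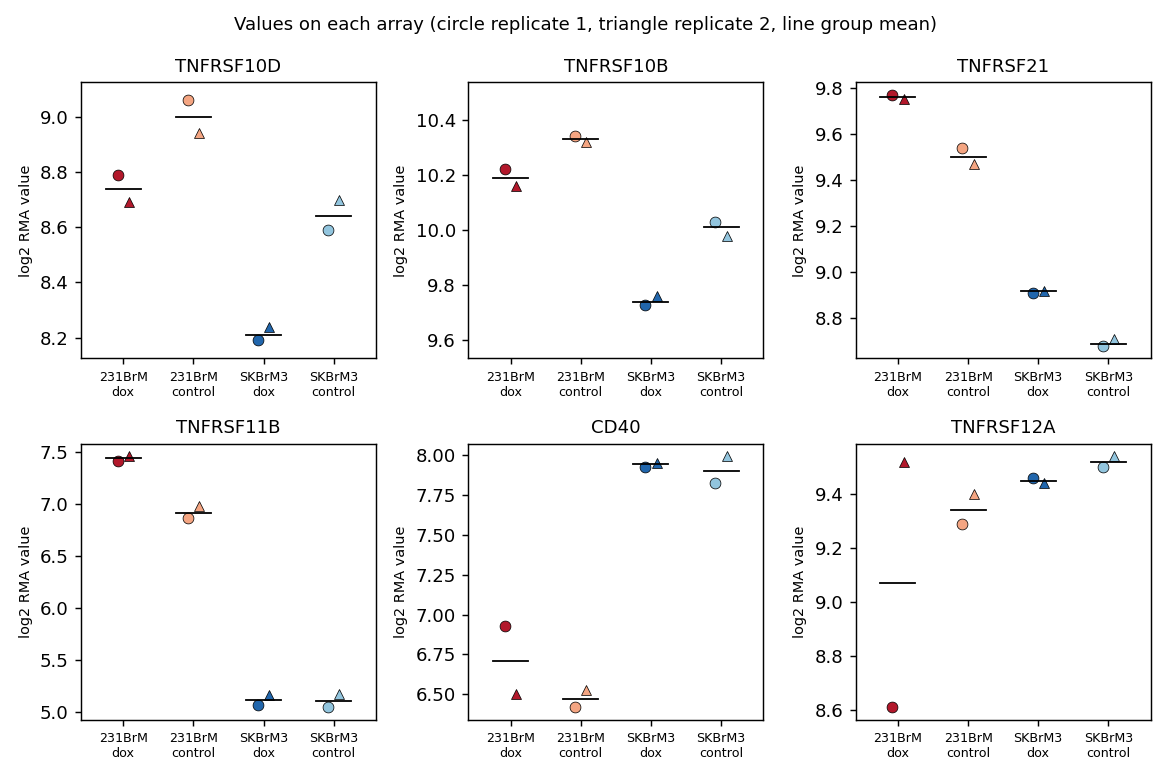
Log2 RMA values on each array (y axis; circles are replicate 1, triangles replicate 2, lines group means) of the members the results turn on, by group (x axis). TNFRSF10D lies lower and TNFRSF21 higher with doxycycline in both lines, and the 2 231BrM doxycycline arrays of TNFRSF12A stand 0.91 apart.

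TNF and the lymphotoxins showed no called change. TNF, the cytokine that gives the family its name, measured 4.38 and 4.44 on 231BrM doxycycline arrays, against 4.37 and 4.44 on controls, at the filter level. It measured 4.39 and 4.36 on doxycycline arrays labelled SKBrM3, against 4.50 and 4.47 on controls. The effects were 0.00 (95% interval -0.17 to 0.17) and -0.11 (95% interval -0.28 to 0.06). LTB, which anchors the lymphotoxin trimer in the membrane, measured 7.21 and 7.12 on 231BrM doxycycline arrays, against 7.24 and 7.21 on 231BrM controls. It measured 7.45 and 7.26 on doxycycline arrays labelled SKBrM3, against 7.41 and 7.25 on controls. The effects of -0.06 and 0.03 were small beside their intervals of -0.28 to 0.15 and -0.19 to 0.25. LTA, its soluble partner, had effects of -0.09 and 0.04, and LTBR, the receptor of the LTA and LTB trimer, 0.07 and -0.03. TNFSF9, the ligand of 4-1BB (TNFRSF9), had -0.08 and 0.02. None of these passed, and each 95% interval reached no further than 0.32 from 0 in 231BrM.

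Receptors best known from B and T lymphocytes passed the filter mostly at low values. CD40, which also signals in epithelial cells, measured 6.93 and 6.5 on 231BrM doxycycline arrays, against 6.42 and 6.53 on 231BrM controls. It measured 7.92 and 7.95 on doxycycline arrays labelled SKBrM3, against 7.82 and 7.99 on controls. The groups overlapped in both lines, with effects of 0.24 and 0.03. The 231BrM effect was 0.03 without doxycycline replicate 1, and was called at 0.45 (limma adjusted p = 0.0233) without replicate 2, while a second probe set gave -0.06. TNFRSF13B (TACI), a receptor of BAFF and APRIL, measured 4.96 and 5.13 on doxycycline arrays labelled SKBrM3, against 5.20 and 5.31 on controls. TNFRSF14 (HVEM), a receptor of LIGHT and LTA, measured 5.55 and 5.67 on doxycycline arrays of that line, against 5.75 and 5.91 on controls. Both were lower with doxycycline in that line without overlap, as were 27.2% of all genes. They were lower by 0.21 and 0.22 on the log2 scale as estimated, and neither passed (limma adjusted p = 0.231 and 0.21). The TNFRSF13B probe set used is one of 4, and all 4 gave negative effects there, from -0.15 to -0.43. The 7 probe sets of TNFRSF14 gave -0.38 to 0.05. CD27, the receptor of CD70, had effects of 0.07 and 0.10 and TNFRSF1B, the TNF receptor of immune and endothelial cells, -0.13 and 0.02. The other members tested, EDAR, RELT, TNFRSF8, TNFRSF13C, TNFRSF19 and TNFSF18, had effects from -0.11 to 0.21, and none passed.

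The doxycycline effect of 0 of 28 members differed between the lines after adjustment, where 0.0231% of all genes did (limma). At an unadjusted p under 0.05 there were 2, TNFRSF11B and NGFR, against 11.2% of all genes. For TNFRSF11B the 231BrM effect was 0.51 larger (95% interval 0.23 to 0.78, limma adjusted p = 0.248). For NGFR it was 0.51 lower as estimated, at -0.51 (95% interval -0.83 to -0.19, limma adjusted p = 0.28). Without 231BrM doxycycline replicate 2 the difference was called for NGFR (limma adjusted p = 0.0321) and TNFRSF12A (limma adjusted p = 0.024). Without replicate 1 of that group the TNFRSF12A difference changed sign, being 0.25, against -0.21 with all arrays. The difference for TNFRSF10D was 0.17 (95% interval -0.10 to 0.45) and that for TNFRSF21 0.04 (95% interval -0.20 to 0.27), so an equal effect in both lines lies within the error for each.

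For TNFRSF11B, TNFRSF21 and CD40 the difference between the lines was larger than the doxycycline effect in either line. The same held for the smaller line differences of TNFRSF1B, TNFRSF10B, TNFRSF11A and CD27. It did not hold for TNFRSF10D, at 0.36, against -0.43 for doxycycline in cells labelled SKBrM3. Without doxycycline 8 of 28 members differed between 231BrM and cells labelled SKBrM3, 28.6% of the members, where 39.7% of all genes differed (limma). Receptors made up all 8, but also 22 of the 28 members tested, and the 6 ligands tested did not pass. TNFRSF11B, TNFRSF21, TNFRSF1B, TNFRSF10D, TNFRSF11A and TNFRSF10B were higher in 231BrM, where 19.8% of all genes were, and CD40 and CD27 were lower, where 19.9% were. TNFRSF1B was tested because 231BrM arrays alone exceeded the filter level, so its place among the higher members follows in part from the filter. The control groups did not overlap in 21 of 28 members, against 76.8% of all genes. TNFRSF11B was 6.92 ± 0.08 in 231BrM controls and 5.11 ± 0.09 in controls labelled SKBrM3 (SD, n = 2 each), 3.5-fold higher (difference 1.81, 95% interval 1.61 to 2.00, limma adjusted p = 1.93e-06). TNFRSF21 was 9.50 ± 0.05 in 231BrM controls and 8.69 ± 0.02 in controls labelled SKBrM3, 1.75-fold higher (limma adjusted p = 6.25e-05), and its other probe sets gave 0.70 and 1.25. CD40 was 6.47 ± 0.08 in 231BrM controls and 7.90 ± 0.12 in controls labelled SKBrM3, 2.7-fold lower (difference -1.43, limma adjusted p = 7.38e-05), with -1.27 for its second probe set. These 3 calls held without each of the 8 arrays in turn. Cell type markers differed in the same comparison. The luminal list averaged 6.34 to 6.37 per 231BrM control array and 6.03 to 6.06 per control array labelled SKBrM3, with members in both directions (KRT19 at 2.59, FOXA1 at -1.37). The mesenchymal and basal list averaged 10.01 to 10.06 and 9.53, with 6 of 14 higher in 231BrM, SPARC at 2.73 among them, and 1 lower. Their part in the result was not tested. The control arrays of this comparison also serve as the controls of both doxycycline effects.

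The other 5 line differences were smaller, and each lost its call without some array; values in brackets after a left-out array are the limma adjusted p without it. TNFRSF1B was 0.41 higher (limma adjusted p = 0.00873), with 0.41 from each of its 2 other probe sets, and was not called without 231BrM control replicate 2 (0.0757) or control replicate 1 labelled SKBrM3 (0.0536). It measured 4.36 and 4.51 on 231BrM control arrays, against 4.01 and 4.03 on control arrays labelled SKBrM3, so 3 of these 4 values lie below the filter level. TNFRSF10D was 0.36 higher (limma adjusted p = 0.00966), lost without 231BrM control replicate 1 (0.0855) or control replicate 1 labelled SKBrM3 (0.0728), and its second probe set gave -0.02. TNFRSF10B was 0.33 higher (limma adjusted p = 0.00737), lost without 231BrM control replicate 1 (0.0532) or control replicate 2 labelled SKBrM3 (0.0533), and its other probe sets gave 0.50 and 0.07. TNFRSF11A was 0.34 higher (limma adjusted p = 0.0293) and lost its call without any of the 4 control arrays. It measured 4.65 and 4.66 on 231BrM control arrays, against 4.39 and 4.24 on control arrays labelled SKBrM3, which lie below the filter level. CD27 was 0.23 lower as estimated, at -0.23 (limma adjusted p = 0.0401), and among the 8 fits without 1 array it was called in those 2 that left out a 231BrM doxycycline array. Without those 2 arrays in turn FAS and TNFRSF1A were called too, FAS at -0.21 (0.0318 without replicate 1) and TNFRSF1A at 0.26 (0.0109 without replicate 1).

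**Figure D4:**
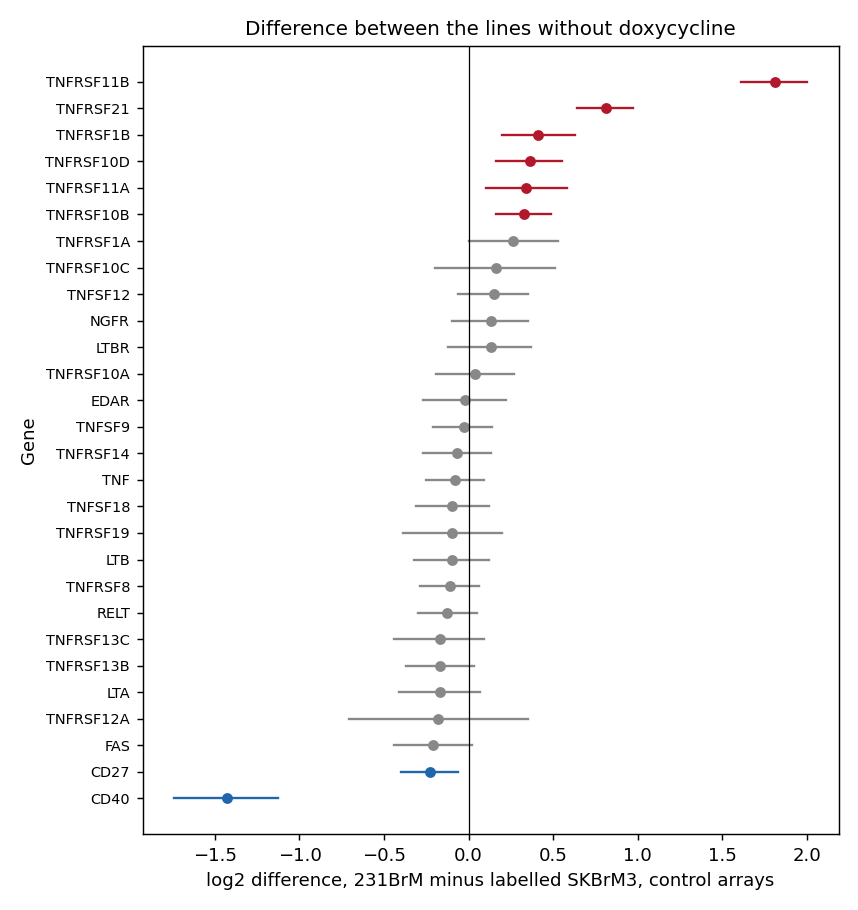
Difference between the control groups (x axis, log2, 231BrM minus labelled SKBrM3) of each of the 28 members tested (y axis), with limma 95% intervals from 2 arrays a group. TNFRSF11B at 1.81 and TNFRSF21 at 0.81 lie on the side of 231BrM, and CD40 at -1.43 on that of cells labelled SKBrM3.

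Downstream of the receptors, every listed gene called for doxycycline in a line or on average fell. Of all genes called, 21 of 21 fell in 231BrM, 296 of 446 in cells labelled SKBrM3 and 269 of 395 for the average. More genes were called in the list of TNF-inducible genes than in the signalling lists. The lists are not separate, as TNFAIP3 stands both among the ubiquitin enzymes and among the TNF-inducible genes. Of 20 adaptors and death-signalling proteins tested, from a list of 25, 0 passed in 231BrM (limma), against 0.162% of all genes. BIRC2, an inhibitor of apoptosis that ubiquitinates RIPK1, fell in cells labelled SKBrM3 by 0.61 (limma adjusted p = 0.00444). This call was lost without doxycycline replicate 1 or control replicate 1 of that line, at up to 0.0752. In that line 2.28% of all genes fell. For the average effect, where 2.07% of all genes fell, 3 of the 20 did: TRAF1, an adaptor of TNFR2, by 0.47, BIRC2 by 0.39 and CFLAR, the caspase-8 inhibitor, by 0.32 (limma adjusted p = 0.0421, 0.00681 and 0.0493). Without any of the 231BrM control arrays or arrays labelled SKBrM3, TRAF1 and CFLAR lost the call (up to 0.173 and 0.203), and BIRC2 lost it without 231BrM control replicate 1 (0.0537). Without either 231BrM doxycycline array 5 of the 20 were called in cells labelled SKBrM3, and the average count ran from 0 without 231BrM control replicate 1 to 7 without 231BrM doxycycline replicate 2. The list's medians were 0.05 in 231BrM and -0.02 in cells labelled SKBrM3, against 0.05 and 0.01 over all genes. Of 18 NF-kB kinases and ubiquitin enzymes tested, from a list of 19, 0 passed in 231BrM, and TNFAIP3 (A20), which limits NF-kB signalling, fell in cells labelled SKBrM3 by 0.61 (limma adjusted p = 0.0361). For the average TNIP1, a partner of A20, fell by 0.52 and TNFAIP3 by 0.43. The TNFAIP3 calls were lost without any of the same 6 arrays (up to 0.22 and 0.167) and the TNIP1 call without either 231BrM control array or replicate 2 of either group labelled SKBrM3 (up to 0.0898). Of 9 sheddases and processing enzymes, SPPL2A, an intramembrane protease that cleaves TNF, fell in cells labelled SKBrM3 by 0.76 and on average by 0.46 (limma adjusted p = 0.00245 and 0.00495), held in every fit without 1 array.

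Of 18 genes tested, from a list of 20 that TNF is known to induce, 3 fell in 231BrM, 10 fell in cells labelled SKBrM3 and 11 fell on average, and none rose (limma). Of all genes 0.162%, 2.28% and 2.07% fell, and 0%, 1.15% and 0.969% rose. The list was chosen with earlier results of these data known, so its direction is not independent evidence. In 231BrM the count was 1 without either control array, 7 without doxycycline replicate 1 and 6 without replicate 2. For cells labelled SKBrM3 and for the average, the count fell without any of the 6 arrays that are not 231BrM doxycycline arrays. Both counts rose without either 231BrM doxycycline array. The list's median effects were -0.31, -0.58 and -0.55, against 0.05, 0.01 and 0.03 over all genes. TNF itself had effects of 0.00 and -0.11, but its values of 4.36 to 4.50 lay at the filter level, where a change is hard to see. Many of the listed genes answer to TNF and to other stimuli of NF-kB, and what lowered them was not tested. The chemokines CXCL2, CXCL8 and CXCL1, which attract neutrophils, were the 3 genes that passed in both lines. CXCL3 and ICAM1, at -1.04 and -0.84 in 231BrM, did not pass there (limma adjusted p = 0.118 and 0.0789). CXCL2 fell by 1.12 in 231BrM and fell by 2.34 in cells labelled SKBrM3. CXCL8 fell by 0.98 in 231BrM and fell by 2.26 in cells labelled SKBrM3. For CXCL1 the effects were -0.67 and -2.15 (limma adjusted p = 0.0249 or below for all 6). In 231BrM the CXCL8 call was lost without either 231BrM control array (up to 0.0781). The CXCL1 call there was lost without any 231BrM control array or array labelled SKBrM3 (up to 0.345). These are the 3 list members whose effect differed between the lines, by 1.22, 1.27 and 1.48 (limma adjusted p = 0.0114 for each). Those 3 differences were lost without any of the 6 arrays that are not 231BrM doxycycline arrays (up to 0.171), except that CXCL1 kept its call without doxycycline replicate 2 labelled SKBrM3.

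Between the control groups the same lists differed in part. Of the adaptors and death-signalling proteins, 7 were higher and 4 lower in 231BrM, among them TANK at 1.43, XIAP at 0.72 and MLKL, the effector of necroptosis, at -1.49. The 11 became 5 without either 231BrM control array or control replicate 1 labelled SKBrM3, and 4 without control replicate 2 labelled SKBrM3. Of the kinases and ubiquitin enzymes, 7 were higher and 2 lower, among them CYLD at 0.96, TAB2 at 0.65 and TAB3 at -0.98. These 9 became 4 without 231BrM control replicate 1, and 3 without control replicate 1 labelled SKBrM3. Of the processing enzymes, SPPL2A at 0.55 and ADAM17, the sheddase of TNF, at 0.51 were higher and GOLM1 at -0.37 was lower, the last not called without 231BrM control replicate 1 or control replicate 2 labelled SKBrM3 (up to 0.0556). Of the TNF-inducible genes, 10 were higher and 1 lower, with IL6 at 1.48, CXCL1 at 1.44 and CCL20 at -2.02. Without 231BrM control replicate 1 or either control array labelled SKBrM3 these 11 became 6, and without 231BrM control replicate 2 they became 7. Other than GOLM1, each gene named for the control groups in these lists kept its call without each array in turn. These shares stand against the 39.7% of all genes that differed between the control groups.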

How the data were processed

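Total RNA was measured on 8 single-colour Affymetrix arrays, 2 in each of 4 groups. The deposited values are log2 values for 49386 probe sets, which per the submitters' processing notes the authors made with RMA. No RMA version, chip definition or build is given in the sources used here. Quantile normalisation hides any change of total RNA per cell.

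Of the probe sets 45259 name 1 gene, and symbols were updated through a RefSeq gene table (GRCh38.p14, names only). Each of 18239 genes was read from the probe set with the highest mean, and 13002 were tested, those above 4.41 on at least 2 arrays. Group means were fitted over the 8 arrays with limma 3.58.1 in R 4.3.3 (4 residual and 4.59 prior degrees of freedom). Tests were two-sided, with Benjamini-Hochberg adjustment over all genes tested. Precision is limited by the number of arrays. The steps were tested on simulated data.

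The members and lists were chosen with earlier results of these data known. Values are given for members called in any comparison or with an unadjusted p under 0.05 for doxycycline, for the 3 ligands and 5 receptors with the highest mean, and for their partners. For other lists, up to 3 called genes per comparison are named. Alternatives were 8 fits without 1 array, other filters, other probe sets, array weights, an intensity trend, a replicate block and fits of the compared groups alone.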

Additional observations from a re-analysis of the deposited data

How the results depend on the processing

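No called effect of a named member changed sign under the alternatives run. Read from its second probe set alone, the called line difference of TNFRSF10D is -0.02, and several uncalled effects, such as those of TNFRSF12A, TNFRSF1A and LTBR in 231BrM, changed sign without 1 array. Over the fits that left out 1 array each, members called numbered 0 to 6 for doxycycline in 231BrM, 0 to 5 in cells labelled SKBrM3, 0 to 10 for the average, 0 to 2 for the difference of the effects and 4 to 10 for the lines. The counts of 6 and of 10 for the average came without 231BrM doxycycline replicate 2, which leaves the array with the excess of 3' signal alone in its group. Its spread is then taken from the other groups. In cells labelled SKBrM3 the count of 1 became 2 with probe sets not ending in _x_at (TNFRSF10D and TNFRSF13B), 6 with array weights, 2 with an intensity trend (TNFRSF10B and TNFRSF10D) and 2 with only the groups compared (TNFRSF10D and TNFSF12). With the mean of all probe sets it stayed 1, but the gene was TNFRSF21 and TNFRSF10D was lost (0.0658). For the average the count of 2 became 1, TNFRSF10D, with probe sets not ending in _x_at and with array weights. For the lines the count of 8 became 5 with the stricter filter, which tested 13 members. Genes called of all tested ranged over the alternatives from 1 to 1650 in 231BrM (21 as reported), 52 to 1631 in cells labelled SKBrM3 (446), 98 to 2887 for the average (395), 0 to 473 for the difference (3) and 3324 to 6634 for the lines (5167). The cause of these moves was not tested.

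Replicate numbers are shared between groups of a line. Deviations of same-numbered arrays correlated at 0.239 in 231BrM and -0.0123 in cells labelled SKBrM3, so the numbers were not taken to pair them. With a replicate block the counts were 0 in 231BrM, 1 in cells labelled SKBrM3, 1 for the average (TNFRSF10D, with TNFRSF21 lost at 0.0654), 0 for the difference and 7 for the lines. CD40, TNFRSF11B and TNFRSF21 kept their line difference in all 16 alternatives. With 2 arrays a group, the unadjusted interval of a member's doxycycline effect in 1 line had a median half-width of 0.217 log2 units. Effects larger than this could still miss the adjustment over all genes. TNFRSF11B at 0.51 in 231BrM did so (limma adjusted p = 0.0978), as did TNFRSF11A at 0.33 in cells labelled SKBrM3 (limma adjusted p = 0.124).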
